A study of Mus musculus with 12 samples.

Results

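The genes described here make, carry, sense and remove prostanoids: the transporters Slco3a1 and Slco2a1, the cyclooxygenases Ptgs1 and Ptgs2, the synthases Ptges and Ptgis, the catabolic dehydrogenase Hpgd, and the prostaglandin E2 receptors Ptger2 and Ptger4. Each was taken by its gene symbol in the platform annotation, and where a symbol had several probe sets the one with the highest mean was used. Of these 9 genes, 8 could be read among 19505 genes on the arrays, and Ptgs1 was not analysed here. The genes were chosen by pathway with results of these arrays known: Slco3a1 was selected on its log2 difference with MIF and Hpgd on its log2 difference between replicate numbers, so those values are a description with no test.

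RNA was measured on 12 microarrays of cultured cardiac fibroblasts from wildtype C57BL/6J mice aged 1 to 7 days, kept for 10 to 14 days until they had turned into myofibroblasts. Carrier, 40 nM sCD74 (soluble CD74), 8 nM MIF (macrophage migration inhibitory factor, a cytokine that binds CD74), or both proteins were added 8 h before RNA isolation. Each of these 4 treatments has 3 arrays. The comparisons address how these genes differ after each protein and after both. In the sample titles the arrays of a replicate number share a code, so numbers 1, 2 and 3 each link 4 arrays, and the labels do not say whether the numbers are separate isolations. The p-values therefore describe the spread among the arrays, which may be technical.

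Prostanoids are short-lived lipid mediators made from arachidonic acid, which phospholipases free from membranes. Cyclooxygenases turn it into prostaglandin H2, and terminal synthases turn that into prostaglandin E2, prostacyclin, thromboxane or prostaglandin D2, which act on G protein-coupled receptors of nearby cells. Organic anion transporters carry prostaglandins across the membrane, and the dehydrogenase encoded by Hpgd inactivates them inside the cell. In cardiac fibroblasts prostaglandin E2 and prostacyclin are known as modulators of proliferation and matrix production, and in tissue macrophages as products and regulators of inflammation.

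The promoters of 3 members are shown because their genes carry the contrasts below: Hpgd and Ptger4 lay on opposite sides between replicate numbers, and Ptgs2 is the textbook inducible enzyme of the family. Of the 8 measured members, 6 had an entry in RefSeq's promoter table (GRCm38.p6), which held none for Slco3a1 and Ptgis. The 250 bases before the annotated start are printed on the gene's strand, and capitals mark a match to the C/EBP motif TTGCNNAA. The windows are chr8:56294302-56294551 on the plus strand for Hpgd, chr15:5244188-5244437 on the minus strand for Ptger4, and chr1:150099781-150100030 on the plus strand for Ptgs2.
Hpgd: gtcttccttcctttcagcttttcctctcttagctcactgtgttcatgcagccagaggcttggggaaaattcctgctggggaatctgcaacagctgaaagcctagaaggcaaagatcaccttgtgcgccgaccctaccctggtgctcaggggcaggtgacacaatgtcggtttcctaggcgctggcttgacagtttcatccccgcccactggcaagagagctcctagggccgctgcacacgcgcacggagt
Ptger4: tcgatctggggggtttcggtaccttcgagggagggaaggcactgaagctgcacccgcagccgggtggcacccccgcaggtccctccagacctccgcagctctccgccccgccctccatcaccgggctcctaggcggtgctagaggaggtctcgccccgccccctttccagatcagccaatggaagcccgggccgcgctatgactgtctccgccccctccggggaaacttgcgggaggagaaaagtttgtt
Ptgs2: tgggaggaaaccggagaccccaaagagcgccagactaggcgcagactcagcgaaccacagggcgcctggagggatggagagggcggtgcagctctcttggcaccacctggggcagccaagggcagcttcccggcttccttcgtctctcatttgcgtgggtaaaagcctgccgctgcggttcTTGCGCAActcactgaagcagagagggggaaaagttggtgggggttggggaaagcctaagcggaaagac

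A search of both strands of the 6 members' windows for 4 motifs, chosen with the results known, found 1 match, the C/EBP motif of Ptgs2. It starts 69 bases before the annotated start and, being its own reverse complement, matches on both strands. Among all 32851 windows of the table, 9.56% held this motif, 4.11% the kappaB motif (GGG, 2 free bases, TT, 1 free base, CC), 6.75% the AP-1 motif TGANTCA and 2.52% the cyclic AMP response motif TGACGTNA. The letters of these other motifs do not occur in the 6 windows.

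All 8 measured fibroblast and 5 myofibroblast markers lay above the negative controls, with means over the 12 arrays from 10.41 for Thy1 to 17.61 for Dcn (decorin) and from 9.14 for Cnn1 (calponin) to 16.56 for Acta2 (smooth muscle actin) on the log2 scale of the deposited values. The means of all 13 measured macrophage markers also lay above 7.53, the mean of the arrays' negative control medians, from Cx3cr1 at 8.16 to Lyz2 at 17.22, and 9 of 10 endothelial markers did, from Cldn5 at 6.75, the only one below, to Eng at 14.69. The 3 measured lymphocyte markers lay below it, as did 2 of 7 cardiomyocyte, 3 of 5 smooth muscle and pericyte, and 2 of 4 epicardial and mesothelial markers. In these bulk samples fewer cells of a type and less RNA per cell cannot be told apart. Members below 7.53 in a compared group are given by their values without a size of difference, and since background depends on a probe's base composition this limit is approximate.

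Slco3a1 encodes an organic anion transporter that carries prostaglandins and other anions. On the arrays of numbers 1, 2 and 3 its log2 values were 11.53, 11.71 and 11.09 with carrier. They were 12.07, 12.08 and 11.73 with sCD74, 12.14, 12.20 and 12.55 with MIF, and 12.59, 12.20 and 12.53 with both. All 9 treated arrays lay above all 3 carrier arrays, a pattern held by 0.236% of genes, and all 6 arrays with MIF lay above the 6 without, as for 0.118% of genes. These shares are given for scale only: the gene was picked for its difference with MIF, which fixes much of both patterns.

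The mean of Slco3a1 lay 0.85 ± 0.19 (SE) above carrier with MIF, 0.99 ± 0.19 above carrier with both proteins and 0.48 ± 0.19 above sCD74 when MIF was added to it, all on the log2 scale. Neither MIF nor both overlapped carrier, as for 3.64% and 4.52% of genes, and both did not overlap sCD74, as for 3.95%. Over all MIF arrays against all without, the difference was +0.67 ± 0.13, from 11.70 ± 0.37 (SD, n = 6) to 12.37 ± 0.21. Among the genes whose means exceeded the negative control level in both groups, Slco3a1 ranked 9 of 11135 by its difference with MIF and 14 of 11116 with both. As the gene was picked for its difference with MIF, the ranks and shares of this paragraph are for scale only. Differences from the carrier array of the same number were +0.61, +0.49 and +1.46 with MIF and +1.05, +0.49 and +1.44 with both. Positive differences in 3 of 3 numbers were found in 13.7% of genes with MIF and 14.2% with both. Adding MIF to sCD74 gave +0.51, +0.13 and +0.80, with 14.8% of genes positive in 3 of 3. Number 3, whose carrier value was the lowest, had the largest differences, and number 2 the smallest.

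**Figure D1:**
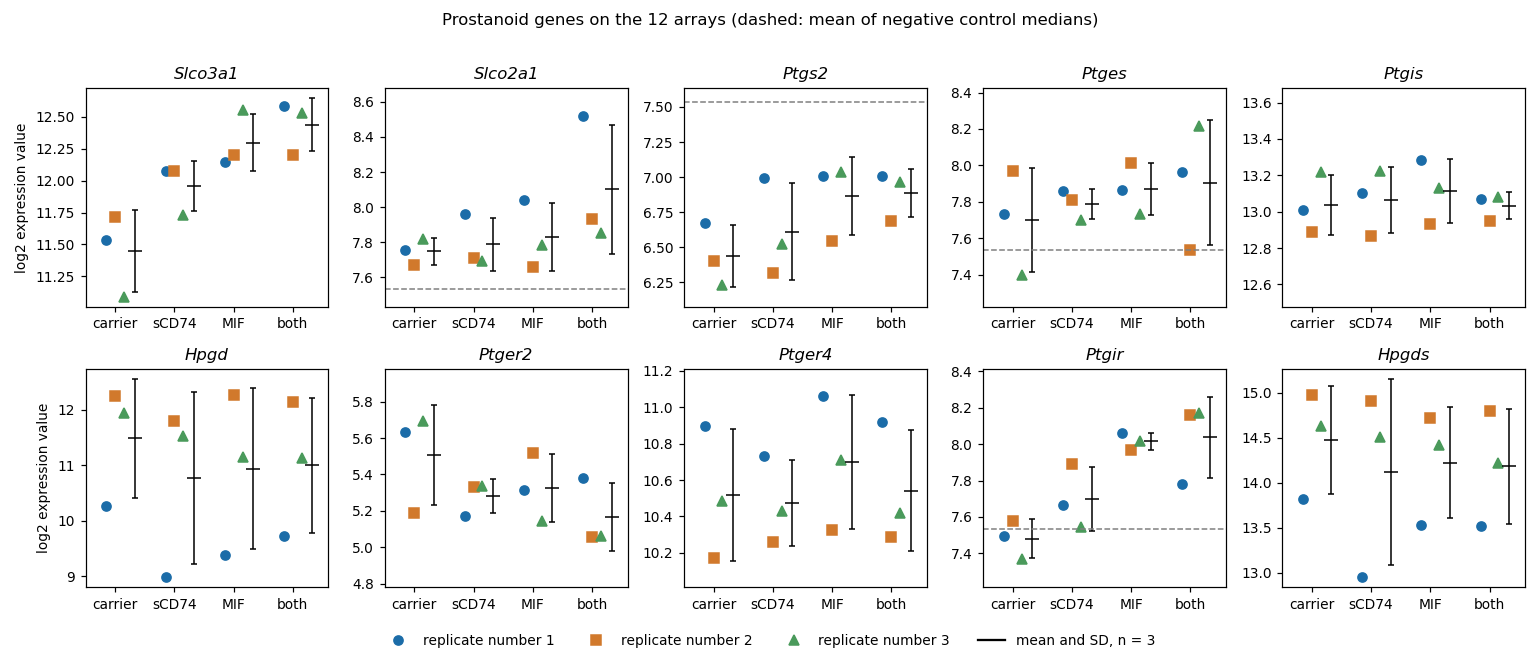
The log2 expression value (y axis) of the 8 measured members, and of Ptgir and Hpgds from the pathway lists, is plotted for each of the 12 arrays by treatment (x axis). Symbols mark the replicate number, bars the mean and SD of 3 arrays, and the dashed line 7.53, the mean of the negative control medians, where it falls near the values. Slco3a1, picked for its difference with MIF, lies higher on every array with MIF than on every array without, while MIF and both overlap. Hpgd, picked for its difference between numbers, lies lower in number 1 than in the others, which overlap. The replicate numbers do not overlap in Ptger4, and Ptgs2 stays below the line on every array.

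With sCD74 alone, Slco3a1 stood at 11.96 ± 0.20 (SD, n = 3) with sCD74 and 11.45 ± 0.32 with carrier, a difference of +0.52 ± 0.19 (SE). The carrier arrays are those of the MIF difference on which the gene was picked, so this value too is a description with no test. The difference was positive in each number, at +0.54, +0.36 and +0.64, as for 12.4% of genes, and the arrays did not overlap, as for 2.51% of genes, but the lowest sCD74 array lay only just above the highest carrier array. Adding sCD74 to MIF gave +0.14 ± 0.19, with +0.44, 0.0015 and -0.02 in the 3 numbers. The MIF arrays entered the pick of the gene, so this difference is likewise a description with no test. Without the 4 arrays of number 1 that difference was -0.01.

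Slco3a1 values hardly followed the replicate number. Of its variance over the 12 arrays, 79.0% lay between treatment groups and 1.10% between numbers, against medians over all genes of 19.2% and 28.5%. The number means were 12.08, 12.05 and 11.98, and neither number 1 against the others (adjusted p = 0.784, limma) nor number 3 against 2 (adjusted p = 0.885) passed. The large share between groups follows from how the gene was picked, as the large share between numbers does for Hpgd, so neither is a result about the gene.

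**Figure D2:**
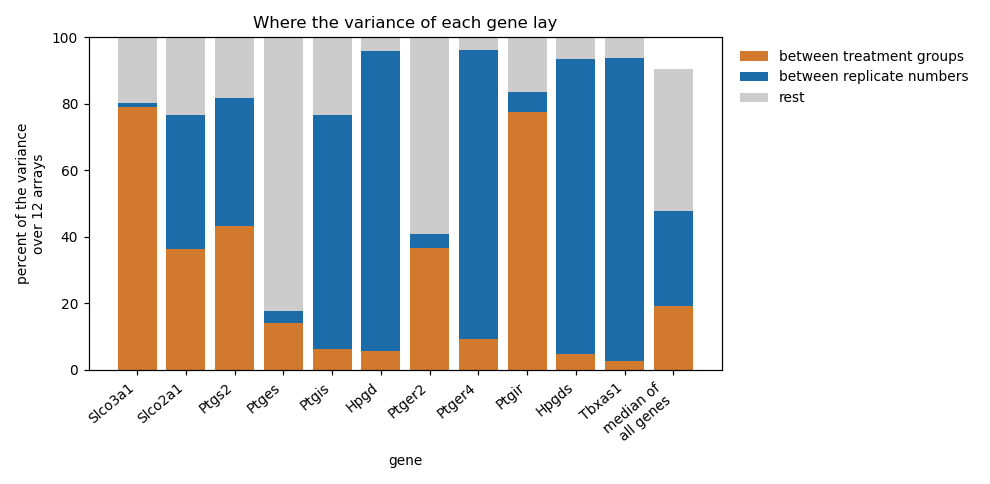
Stacked bars give the percent of each gene's variance over the 12 arrays (y axis) that lay between the 4 treatment groups, between the 3 replicate numbers, and in the rest, for the members and 3 pathway genes (x axis). The last bar shows medians over all genes, which do not add up to the whole. The treatment share is 79.0% for Slco3a1 and 77.4% for Ptgir, and the share of the numbers is 90.3% for Hpgd and 87.0% for Ptger4. Slco3a1 and Hpgd were picked for such differences and Ptgir is named for its p with MIF, so the shares of these genes are descriptions only.

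Among 11290 genes with a mean above the negative control level, those whose 12 log2 values followed Slco3a1 most closely were Tnfsf18, a ligand of the TNF family (Pearson r = 0.90), Cycs, which encodes cytochrome c (0.88), Ch25h, the cholesterol 25-hydroxylase (0.86), the metallothionein Mt2 (0.86) and the cationic amino acid transporter Slc7a2 (0.85). With the mean of each replicate number subtracted, Ch25h (0.96), the transcription factor Myc (0.94), Mt2 (0.94), Dram1, a lysosomal protein of autophagy (0.93), and Ssr2, a subunit of the translocon-associated complex (0.93), came first. These are descriptions over 12 arrays that share treatments and normalization, with the highest of many correlations picked. Ch25h and Mt2 were in both lists.

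Slco2a1 encodes the prostaglandin transporter that takes prostaglandins up for breakdown. Its values in numbers 1, 2 and 3 were 7.75, 7.67 and 7.82 with carrier, 7.96, 7.71 and 7.69 with sCD74, 8.04, 7.66 and 7.78 with MIF, and 8.52, 7.93 and 7.85 with both, all close to the negative control level. The 3 arrays with both proteins lay above the 3 carrier arrays, as for 4.52% of genes. The difference of +0.35 ± 0.18 did not pass limma's test without a block (adjusted p = 0.999). Blocked on the number, its unadjusted p was under 0.05, and it did not pass there either. In numbers 1, 2 and 3 the difference was +0.77, +0.26 and +0.03, so number 1 held most of it. Without the array of number 1 with both proteins, the difference was +0.14.

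Ptgs2 encodes the inducible cyclooxygenase, and its values lay below 7.53 on all 12 arrays. They were 6.67, 6.40 and 6.23 with carrier, 6.99, 6.32 and 6.52 with sCD74, 7.01, 6.55 and 7.04 with MIF, and 7.01, 6.69 and 6.96 with both. The arrays with both proteins lay above the carrier arrays, as for 4.52% of genes, by a narrow gap (lowest 6.69 against highest 6.67). Those with MIF overlapped the carrier arrays. Neither comparison passed limma's test (adjusted p = 1.00 for MIF and 0.999 for both, unadjusted p = 0.0499 and 0.0410), and at this signal no size can be given.

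Ptges encodes the inducible synthase of prostaglandin E2. Its values were 7.73, 7.97 and 7.40 with carrier, 7.86, 7.81 and 7.70 with sCD74, 7.86, 8.01 and 7.73 with MIF, and 7.96, 7.53 and 8.21 with both. The groups overlapped, 1 of 12 arrays lay below the negative control level, and 82.3% of the variance lay neither between groups nor between numbers. Over all MIF arrays against the rest the difference was +0.14 ± 0.13, which did not pass (adjusted p = 1.00).

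Ptgis encodes prostacyclin synthase and varied little. Carrier arrays had a mean of 13.04 ± 0.17 (SD, n = 3), sCD74 arrays 13.06 ± 0.18, MIF arrays 13.12 ± 0.18 and arrays with both 13.03 ± 0.07. The 12 values ran from 12.86 to 13.28, and treatment groups took 6.15% of the variance. All 4 arrays of number 3 lay above the 4 of number 2, as for 5.50% of genes, with means of 13.16 and 12.91. The difference of +0.25 ± 0.10 did not pass limma's test (adjusted p = 0.245).

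Of the receptors, Ptger2 couples to cyclic AMP synthesis and lay between 5.06 and 5.69, below the negative control level on all 12 arrays. Ptger4, which also couples to cyclic AMP, was well above it. Its values in numbers 1, 2 and 3 were 10.90, 10.17 and 10.48 with carrier, 10.73, 10.26 and 10.43 with sCD74, 11.06, 10.32 and 10.71 with MIF, and 10.92, 10.28 and 10.42 with both. The treatment groups overlapped throughout. MIF arrays lay above the carrier array of the same number by 0.17, 0.15 and 0.23. Of all genes, 13.7% had 3 of 3 positive differences. The mean difference of +0.18 ± 0.24 did not pass limma's test without a block (adjusted p = 1.00). That SE includes the spread between numbers, which held 87.0% of the variance of Ptger4. Blocked on the number, Ptger4 did not pass with MIF either, and its unadjusted p was not under 0.05.

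In each treatment the Ptger4 values lay in the same order of numbers, with number 1 highest and number 2 lowest. Number 1 was higher than numbers 2 and 3 by 0.52 ± 0.08 (limma, adjusted p = 9.5e-04), with a mean of 10.90 ± 0.14 (SD, n = 4) against 10.26 ± 0.06 and 10.51 ± 0.14, and its 4 arrays lay above the other 8, as for 4.10% of genes. The call held without any single array. Number 3 lay above number 2 by 0.25 ± 0.09, with no overlap, as for 5.50% of genes, and did not pass (adjusted p = 0.240).

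Hpgd encodes 15-hydroxyprostaglandin dehydrogenase, the main enzyme that inactivates prostaglandin E2. Its values in numbers 1, 2 and 3 were 10.26, 12.25 and 11.95 with carrier, 8.98, 11.80 and 11.52 with sCD74, 9.39, 12.27 and 11.14 with MIF, and 9.72, 12.14 and 11.13 with both. In each treatment number 1 was lowest and number 2 highest, the reverse of the order in Ptger4. Number 1 differed from the mean of numbers 2 and 3 by -2.19 ± 0.16. That ranks 2 of 11053 from the lowest among genes above the negative controls in number 1 and in the mean of numbers 2 and 3. Number 3 differed from number 2 by -0.68 ± 0.18. These differences chose the gene and are not tested.

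Treatment was not used to pick Hpgd. Against carrier its difference was -0.72 ± 0.88 with sCD74, -0.55 ± 0.88 with MIF and -0.49 ± 0.88 with both, none of which passed limma's test (adjusted p = 1.00, 1.00 and 0.999), and with the replicate number as a block, where the SE was 0.21, none passed either (adjusted p = 1.00, 0.740 and 0.596, unadjusted 0.00462, 0.0204 and 0.0355). Within numbers 1, 2 and 3 the differences were -1.28, -0.45 and -0.43 with sCD74, -0.88, +0.02 and -0.80 with MIF, and -0.55, -0.11 and -0.82 with both. The sCD74 arrays were thus below their carrier array in 3 of 3 numbers, as in 13% of genes. The mean of the 13 macrophage markers differed by -0.36, -0.01 and -0.43 in the same sCD74 pairs, by -0.21, -0.19 and -0.08 with MIF, and by -0.18, +0.07 and -0.16 with both. Its part in the Hpgd values was not tested. Without the treated array of number 1 the unpaired differences of Hpgd were +0.17 for sCD74, +0.22 for MIF and +0.15 for both. These set treated arrays of numbers 2 and 3 against carrier arrays of all 3 numbers. As number 1 was lowest in each treatment, this imbalance raises them, and their sign cannot be set against that of the pairs.

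**Figure D3:**
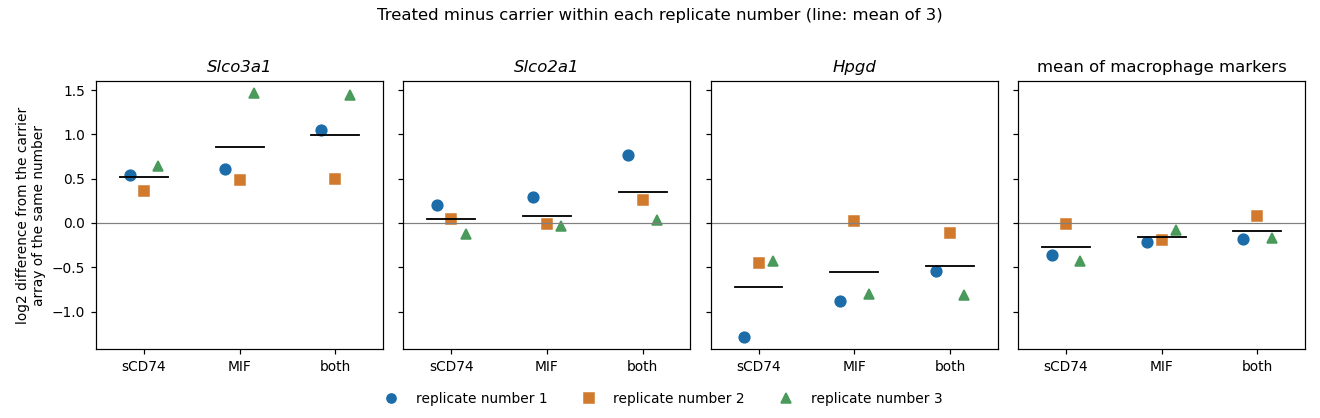
Each point is the log2 difference (y axis) between a treated array and the carrier array of the same replicate number, for sCD74, MIF and both (x axis), and the line is the mean of 3. Slco3a1 lies above 0 in 9 of 9 points, Slco2a1 reaches +0.77 in number 1 with both, and Hpgd runs from -1.28 to +0.02 while the mean of the macrophage markers runs from -0.43 to +0.07.

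With Slco3a1 left aside, 0 of 7 members passed limma's test in the 7 treatment comparisons, where the share of all genes called was 0% (0 of 19505 in each). In the fit without a block, only Ptgs2 of these 7 had an unadjusted p under 0.05 with MIF and with both against carrier. None had with sCD74, while 3.35%, 4% and 1.79% of all genes did in the MIF, both and sCD74 comparisons. Blocked on the replicate number, Hpgd had such a p with sCD74, Ptgs2 and Hpgd with MIF, and Slco2a1, Ptgs2 and Hpgd with both. None of them passed, and 817, 1254 and 1606 of 19505 genes had such a p in those fits. In a fit blocked on the number, with trend and robust variance added, 6 genes were called with both against carrier, 1 of them Slco3a1 and none another member. As Slco3a1 was picked for its difference with MIF, its call there does not count as a test. The median log2 difference over these 7 members was +0.03 with sCD74, +0.08 with MIF and +0.02 with both, against medians over all genes of -0.00001, +0.01 and 0.0014. Between replicate numbers the share of genes called was 16.4% for number 1 against the others and 1.15% for number 3 against number 2. With Hpgd left aside, 2 of 7 members, Ptger4 and Ptgs2, passed in the first and 0 of 7 in the second. Ptgs2 passed narrowly (adjusted p = 0.0482) while below the negative control level in every number, so no size is given, and it lost the call in 10 of 12 fits without 1 array (adjusted p from 0.0305 to 0.207). Slco2a1 lay 0.31 ± 0.10 higher in number 1 and did not pass (adjusted p = 0.0578), though it did without the carrier array of number 1 (0.0259) or of number 3 (0.0458), with each array centred on its median (0.0469), and among genes above the negative controls (0.0273).

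The rest of the pathway was read from 53 genes listed by role, of which 48 were measured and 24 had a mean below the negative control level. None passed limma's test in the 7 treatment comparisons, and the median log2 difference of the 48 genes was -0.03 with sCD74, -0.00085 with MIF and -0.04 with both. Unadjusted p was under 0.05 for 1, 1 and 2 of the 48 in these comparisons, where 1.79%, 3.35% and 4% of all genes had such a p. Blocked on the replicate number, 4, 3 and 3 of the 48 had such a p, as did 817, 1254 and 1606 of 19505 genes. None of the 48 passed there either. Without the block, the smallest p on the higher side with MIF and with both belonged to Ptgir, the prostacyclin receptor, and with sCD74 to Tbxa2r, the thromboxane receptor.

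Ptgir had values in numbers 1, 2 and 3 of 7.50, 7.58 and 7.37 with carrier, 7.67, 7.89 and 7.54 with sCD74, 8.06, 7.97 and 8.02 with MIF, and 7.78, 8.16 and 8.17 with both. The MIF arrays and the arrays with both lay above the carrier arrays, as for 3.64% and 4.52% of genes. The carrier mean of 7.48 is just under the negative control level. All MIF arrays against all without differed by +0.44 ± 0.10 (8.03 ± 0.14 against 7.59 ± 0.18, SD, n = 6), with overlap, and did not pass (adjusted p = 1.00 without and 0.422 with the replicate number as a block). Its values followed those of Slco3a1 with r = 0.82 over the 12 arrays, and r = 0.85 with the number means subtracted, a description over arrays that share the treatments. Slco3a1 was picked for its difference with MIF, and Ptgir is named for its p in the same comparisons. That selection fixes part of the likeness, and the shares given for Ptgir are for scale only. Tbxa2r lay 0.28 ± 0.13 above carrier with sCD74 (9.10 ± 0.13 against 8.82 ± 0.13, SD, n = 3), also without passing (adjusted p = 1.00).

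The other genes with the smallest p in a treatment comparison were mostly dim. Prxl2b, a prostaglandin F synthase, differed from carrier by -0.32 ± 0.23 with MIF (adjusted p = 1.00). Alox12 and Alox5, lipoxygenases, Pla2g12a, a secreted phospholipase, Ltb4r1 and Ptgdr, receptors for leukotriene B4 and prostaglandin D2, and the transporter Slco4c1 were below the negative control level in a compared group, and none passed.

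Between replicate numbers the pathway differed more. In number 1 against numbers 2 and 3, 12 of the 48 genes were called lower and 1 higher. Of all 19505 genes, 1832 were called lower and 1372 higher, which is 16.4% in either direction. The median difference was -0.04 against +0.02 over all genes. By role, 1 of 9 genes of arachidonate release passed as lower, as did 4 of 9 further synthases, 2 of 3 breakdown genes, 0 of 8 further receptors, 2 of 10 further transporters and 3 of 9 genes of the leukotriene branch. The 1 gene called higher, the aldo-keto reductase Akr1b8, was among the synthases.

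The largest differences were in Tbxas1, which makes thromboxane, and Hpgds, the haematopoietic prostaglandin D synthase. Tbxas1 stood at 10.81 ± 0.38 (SD, n = 4) in number 1, 12.55 ± 0.14 in number 2 and 11.89 ± 0.19 in number 3, and the difference of number 1 was -1.41 ± 0.14 (adjusted p = 3.3e-05). Hpgds stood at 13.46 ± 0.36, 14.85 ± 0.11 and 14.44 ± 0.17, with a difference of -1.19 ± 0.12 (adjusted p = 4.7e-05). In both genes the 4 arrays of number 1 lay below all others, as for 5.71% of genes, and those of number 3 lay below those of number 2, as for 4.94%. Both genes are known for their expression in macrophages and other blood cells.

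In the leukotriene branch 3 of 9 genes were called lower in number 1, and 4 of the 9 lay above 0. Alox5ap, the protein that presents arachidonate to 5-lipoxygenase, fell by 0.57 ± 0.09 there (adjusted p = 0.00141), and Cysltr1, a cysteinyl leukotriene receptor, fell by 0.76 ± 0.13 (adjusted p = 0.00198). Ltc4s, leukotriene C4 synthase, fell by 0.53 ± 0.11 in number 1 (adjusted p = 0.00617) and was the only pathway gene called between numbers 3 and 2, where it fell by 0.71 ± 0.13 in number 3 (adjusted p = 0.0235). That last call was lost without any one of 6 arrays, those of number 3 with carrier, sCD74 or both and of number 2 with sCD74, MIF or both (adjusted p from 0.0603 to 0.122).

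Other steps had smaller differences in number 1. Ptgr1, a prostaglandin reductase, fell by 0.51 ± 0.10 (adjusted p = 0.00506). Slco1a4, an organic anion transporter, fell by 0.51 ± 0.12 (0.00946), and Cbr1, a carbonyl reductase that acts on prostaglandin E2, fell by 0.45 ± 0.11 (0.0123). Abcc4, an efflux pump for prostaglandins, fell by 0.37 ± 0.09 (0.0107) and Prxl2b fell by 0.35 ± 0.10 (0.0359). Pla2g4a, the cytosolic phospholipase that releases arachidonate, fell by 0.30 ± 0.08 (0.0192), while Akr1b8 was higher by 0.31 ± 0.08 (0.0248). Cbr4 passed (0.0452) below the negative control level.

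Several of these smaller calls rested on single arrays. Slco1a4 lost its call without the sCD74 array of number 1 (adjusted p = 0.0530), Abcc4 without that array (0.0548) or the one with both (0.0622), and Cbr1 without the carrier (0.0632) or MIF array (0.0577) of number 1. Pla2g4a lost it without the carrier (0.0758), sCD74 (0.0692) or both array (0.0590) of number 1, and Akr1b8 without the MIF (0.0669) or sCD74 (0.133) array of number 1 or the sCD74 array of number 2 (0.0563). Prxl2b and Cbr4 each lost it without any one of 9 arrays, at adjusted p up to 0.106 and 0.206. Prxl2b also lost it after a repeated quantile normalization (0.0909), and Cbr4 with each array centred on its median (0.0554). Without the sCD74 array of number 1 the count of called pathway genes was 8, and over all single arrays left out it ran from 8 to 13.

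**Figure D4:**
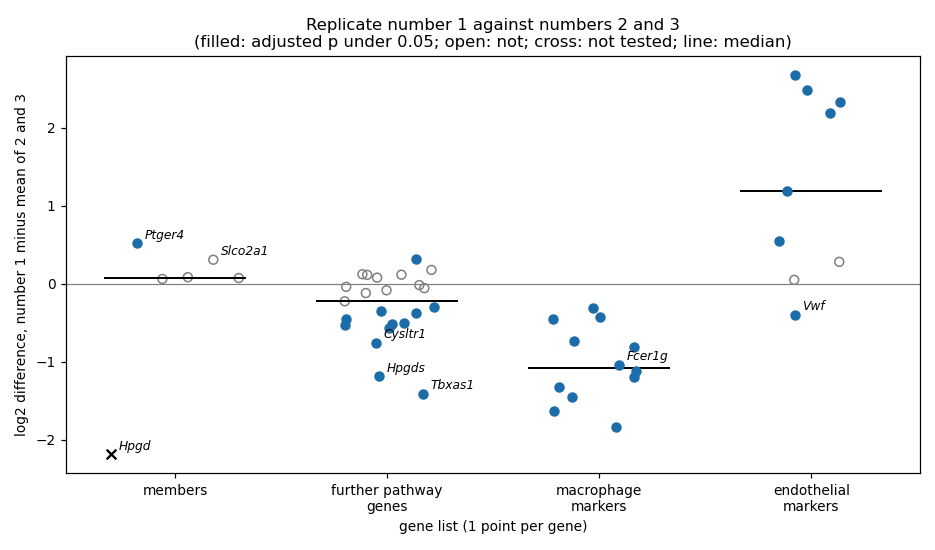
Points give the log2 difference of replicate number 1 from the mean of numbers 2 and 3 (y axis) for genes of 4 lists (x axis) whose mean exceeded the negative control level in each number, which are 6 of 8 members, 23 of 48 pathway genes, 12 of 13 macrophage and 9 of 10 endothelial markers. Filled points passed limma's test, open ones did not, the cross marks Hpgd, which is not tested, and lines are medians. Hpgd, picked for its difference between numbers, lies lowest of all, at -2.19, Hpgds and Tbxas1 lie among the macrophage markers, and Ptger4 lies above 0.

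Marker genes of other cells moved with the replicate number in the same comparison, where 16.4% of all genes were called, 1832 of 19505 lower and 1372 higher. All 13 macrophage markers were called lower in number 1, with differences from -1.84 for Aif1 to -0.32 for Mrc1 and a median of -1.12, and the mean over the list ran from 12.77 to 13.13 on the arrays of number 1, 14.03 to 14.29 in number 2 and 13.52 to 13.94 in number 3. Of 10 endothelial markers 7 were higher and 1, Vwf, lower, with a median of +1.09, and the list mean ran from 10.88 to 10.96, 9.32 to 9.47 and 9.82 to 10.11. Of the other lists, 0 of 8 fibroblast, 2 of 5 myofibroblast, 3 of 7 cardiomyocyte, 3 of 5 smooth muscle and pericyte, 2 of 4 epicardial and mesothelial and 0 of 3 lymphocyte markers were called, all higher. Between numbers 3 and 2, 1 of 13 macrophage markers was called lower, 4 of 10 endothelial markers higher and 5 of 7 cardiomyocyte markers lower. Of all 19505 genes, 138 were called lower there and 86 higher, which is 1.15% in either direction. The difference of Hpgd in number 1 was further below 0 than that of each macrophage marker. Hpgd was picked for its difference between numbers, so this is a description only. The order of numbers in Hpgd, Hpgds and Tbxas1 was that of the macrophage list, and the order in Ptger4 was that of the means of the endothelial, fibroblast, smooth muscle and pericyte, and epicardial and mesothelial lists. The part of any of these cell types in these values was not tested.

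Of the genes above the negative control level, Hpgd was followed most closely by Fcer1g, the Fc receptor gamma chain and one of the macrophage markers (r = 0.99), Hpgds (0.98), Ly86, a partner of a Toll-like receptor homologue (0.98), Stab1, a scavenger receptor of macrophages (0.98), and Gbp8, a guanylate-binding protein (0.98), over 12 arrays whose numbers share a code. With the number means subtracted, r was 0.80 between Hpgd and Hpgds and 0.42 between Hpgd and Tbxas1. These correlations describe the 12 arrays, and over all of them the differences between numbers dominate.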

How the data were processed

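Biotin-labelled cDNA from total RNA was hybridised to Affymetrix arrays, per the labels' protocols. The submitters' processing notes list RMA (a background, quantile and summary procedure for probe sets) among the steps of the authors, beside Transcriptome Analysis Console and Affymetrix Expression Console. The genome build is not stated in them. The deposited log2 values, between 3.08 and 18.39, were used as deposited. Array medians lay between 8.01 and 8.14. Values above 16, the log2 limit of a 16-bit scanner, occur, so the scale of a difference as a fold is uncertain.

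Of 28846 probe sets, 6640 controls and 2634 without a symbol were left out, 0 had several symbols, and 19572 had 1. All 19572 matched RefSeq (GRCm38.p6) by Entrez ID. For a repeated symbol the probe set with the highest mean was kept, leaving 19505 genes.

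limma 3.58.1 in R 4.3.3 (lmFit, eBayes) fitted 4 group means over 12 arrays, and for replicate numbers an additive model of group and number. Tests were two-sided with Benjamini-Hochberg adjustment over all genes at 0.05. Errors of differences are standard errors. The fits were tested on simulated data. Members and lists were chosen with earlier results of these data known. The text names all members, the pathway genes that passed or had the smallest p in each direction, and the 5 genes most correlated with Slco3a1 and Hpgd. The 5 unmatched pathway genes were not used here.

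The shared title code was taken to pair the arrays. As a check, each array's group mean was subtracted: r over genes was then 0.097 to 0.65 for pairs sharing a number (median 0.43, and 17 of 18 exceeded 0.1), and every one of 12 arrays had its highest r with one of its own number. Alternatives were the replicate block, 2 further array scalings, trend and robust variance, a filter on dim genes, the mean of all probe sets of a symbol, and leaving out each array or number 1.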

Additional observations from a re-analysis of the deposited data

Results flagged for a closer look

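Abcc4, which encodes an efflux pump for prostaglandins, was higher with MIF than with carrier but not higher with both proteins than with sCD74. MIF arrays lay above the carrier array of the same replicate number by 0.27, 0.23 and 0.52 (log2), and 13.7% of genes were positive in 3 of 3. The sCD74 arrays also lay above carrier, by 0.07, 0.25 and 0.33, and those with both differed from carrier by -0.08, +0.14 and +0.33. Arrays with both proteins differed from the sCD74 array by -0.14, -0.11 and -0.0056, the last close to 0. The MIF difference with sCD74 minus that without was -0.42 ± 0.26 (SE), which did not pass limma's interaction test (adjusted p = 1.00).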

How the results depend on the processing

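In the treatment comparisons 0 of 19505 genes passed limma's test, with 313 to 1802 at an unadjusted p under 0.05 over the fits with and without block, trend and robust variance. Blocking on the replicate number gave 1 for all MIF against all without, and 0 in the other 6. With block, trend and robust variance together it was 1 for MIF against carrier, 6 for both against carrier (1 of them Slco3a1, picked for its MIF difference, and no other member), 2 for both against sCD74 and 3 for all MIF against all without. Without single arrays it was 0 to 1 for all MIF against all without. The block alone changed no other call of a treatment comparison. In number 1 against the others 3204 genes were called, and fits without single arrays gave totals of 2079 to 3063, the lowest without the sCD74 array of number 1. Between numbers 3 and 2 the total was 224, and it was 59 to 227 in fits without single arrays (59 to 111 without the carrier, sCD74 or both array of number 2 or 3), 734 with trend and robust variance and 540 among genes above the negative controls. How many genes these totals share was not counted. Members called in number 1, Hpgd aside, numbered 1 in place of 2 without the treatment covariate, with quantile normalization once more and with trend and robust variance, 3 with each array centred on its median, and 1 to 2 without single arrays. Pathway genes called there numbered 8 to 13 without single arrays. Slco3a1 with both against MIF turned to -0.0107 without the 4 arrays of number 1 (+0.06 to +0.27 without single arrays). Against carrier, Hpgd ran from -1.33 to +0.17 with sCD74, from -1.22 to +0.22 with MIF and from -1.10 to +0.15 with both over single arrays left out. These unpaired fits leave the replicate numbers unbalanced between groups, and Hpgd was lowest in number 1 in each treatment, so the ranges include that imbalance. Causes were not tested. Signal over background limits Ptgs2 and Ptger2, and 3 arrays a group limit the precision of every treatment difference.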
